A study of Mus musculus with 6 samples.

Results

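The genes of the proteasome were read in bone marrow stromal cells (BMSCs), adherent marrow cells that can form bone or fat, of wild-type animals (WT, 3 arrays) and of animals labelled as knockouts of the microRNA gene miR-188 (KO188, 3 arrays). Members were all genes whose symbol is Psma, Psmb, Psmc, Psmd or Psme followed by a number and at most 1 further letter, each read on its brightest probe set that the platform annotation pairs with 1 symbol. This gave 43 genes of 19938 tested: 8 of the 20S alpha ring, 8 of the 20S beta ring, the 3 immuno subunits, 6 ATPases (Psmc) and 14 other genes (Psmd) of the 19S particle, and 4 activators (Psme). Of 44 genes in the RefSeq table that fit the rule, Psme2b, a near copy of Psme2, had no probe set of its own and was not analysed here.

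Both groups were C57BL/6 mice 6 months old, and both sets of cultures received bone-inducing medium, which held ascorbate-2-phosphate at 0.05 mM, beta-glycerophosphate at 10 mM and dexamethasone at 100 nM. The samples are called biological replicates with nothing further on separate animals or dishes, so p-values measure only the spread between these samples. How much of the miR-188 locus was removed, whether the deletion was made in all cells of the mouse, and the sex of the mice remain unstated. No batch is named, and genotype and a culture difference shared by the KO188 samples cannot be told apart.

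The proteasome breaks down ubiquitin-tagged proteins into peptides. Its 20S core is a barrel in which alpha subunits form the outer gated rings and beta subunits the inner rings, with the protein-cutting sites on Psmb5, Psmb6 and Psmb7. The 19S particle caps the barrel, recognises ubiquitin, removes it and unfolds the substrate with its ATPases. Interferon is known to induce Psmb8, Psmb9 and Psmb10, which take the places of Psmb5, Psmb6 and Psmb7 in newly built cores, and also Psme1 and Psme2, which form the ubiquitin-independent cap PA28. Such immunoproteasomes are standard in blood cells and inducible in stromal cells, and much of their output goes to class I antigen presentation.

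Immunoproteasome genes rose in KO188 while the beta subunits that they replace stayed within narrow limits. Psmb8 rose 5.01-fold, Psmb9 3.69-fold and Psmb10 3.25-fold, and the PA28 genes Psme1 and Psme2 rose 1.83-fold and 1.75-fold. Among the other 38 members the log2 changes ran from -0.39 to 0.075, and 19 fell. Most of those 19 belonged to the 19S group, in which 15 of 20 genes fell, against 16.5% of all tested genes called lower. Without its 3 assembly chaperones the count was 13 of 17. In all, limma called 24 of 43 members (55.8%) at an adjusted p of 0.05 (Benjamini-Hochberg over all tested genes), beside 29.8% of all tested genes. Members were bright, with a median level of 11.5 against 7.97 over all tested genes. With the dimmer 50% of genes left out, 41 members remained, and among their calls 0 were lost and 1 was gained. In that fit 6217 genes were called, more than the 5937 called among all tested genes. The called shares of all tested genes given here are thus lower than those among the brighter 50% of genes. Set beside 29.8%, the 55.8% of members called does not show an excess over genes of like brightness.

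The promoters of the rising members are shown because these genes moved together, and those of the constitutive partners Psmb5 and Psmb6 because they were not called. Each line gives the 150 bases before the transcription start in the RefSeq promoter table (GRCm38.p6), 5′ to 3′ on the gene's strand. Capitals mark any match, on either strand, to the interferon-stimulated response element (ISRE, searched as GAAA, any 2 bases, GAAA), the STAT site (GAS, TTCNNNGAA) or the antioxidant response element (ARE, TGACNNNGC). The windows are chr17:34198045-34198194 (plus strand) for Psmb8, chr17:34187331-34187480 (minus strand) for Psmb9, chr8:105938393-105938542 (minus strand) for Psmb10, chr14:55578344-55578493 (plus strand) for Psme1, chr14:55591102-55591251 (minus strand) for Psme2, chr14:54617996-54618145 (minus strand) for Psmb5 and chr11:70525207-70525356 (plus strand) for Psmb6.
Psmb8: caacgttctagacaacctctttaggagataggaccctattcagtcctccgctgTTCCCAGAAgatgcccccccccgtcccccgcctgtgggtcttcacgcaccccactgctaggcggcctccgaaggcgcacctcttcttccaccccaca
Psmb9: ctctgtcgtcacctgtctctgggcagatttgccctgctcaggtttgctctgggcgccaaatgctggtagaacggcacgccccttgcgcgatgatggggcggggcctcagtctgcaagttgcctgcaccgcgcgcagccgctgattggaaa
Psmb10: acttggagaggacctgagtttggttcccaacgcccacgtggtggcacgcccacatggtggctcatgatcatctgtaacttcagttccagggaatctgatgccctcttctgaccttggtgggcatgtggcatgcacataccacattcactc
Psme1: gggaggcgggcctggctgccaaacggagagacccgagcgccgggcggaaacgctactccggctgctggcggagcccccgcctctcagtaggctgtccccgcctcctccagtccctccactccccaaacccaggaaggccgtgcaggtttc
Psme2: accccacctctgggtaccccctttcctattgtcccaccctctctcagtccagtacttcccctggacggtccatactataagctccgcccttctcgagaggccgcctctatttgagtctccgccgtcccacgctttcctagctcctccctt
Psmb5: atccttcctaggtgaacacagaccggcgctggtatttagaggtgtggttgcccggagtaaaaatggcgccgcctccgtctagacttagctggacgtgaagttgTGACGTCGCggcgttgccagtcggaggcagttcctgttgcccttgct
Psmb6: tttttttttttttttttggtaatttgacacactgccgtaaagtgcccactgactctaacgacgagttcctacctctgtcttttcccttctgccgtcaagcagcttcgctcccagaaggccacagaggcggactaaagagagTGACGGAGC

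The table holds windows of 300 bases, 250 before and 50 after the start, for 36 of the 43 members; Psma8, Psmb1, Psmb2, Psmb7, Psmc3, Psmd3 and Psmd7 have no entry. The GAS letters of Psmb8 lay at -97 to -89 from its start. Psme1 held an ISRE match at 10 to 19 bases after its start, outside the printed stretch. Psmb5 held an ARE match at -47 to -39 and Psmb6 at -9 to -1. Of all 32851 windows in the table, 3.44% held an ISRE match, 8.30% a GAS match and 12.4% an ARE match. Among the 6 windows of the 5 rising genes (Psme2 has 2) the counts were 1, 1 and 0, and among the 33 windows of the other members they were 3, 1 and 6. The ISRE matches of the other members lay in Psmb3, Psmd4 and Psmd9, none of which was called. A match is only a string of letters, and a window without one says nothing about the factor. The start of Psmb9 lies 225 bases from that of Tap1, the peptide transporter gene read in the opposite direction, so the printed Psmb9 stretch lies wholly between the starts of these genes.

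The 3 immuno subunits showed the largest changes of the family. Psmb8 encodes beta5i, which replaces Psmb5 and favours cuts after hydrophobic residues. Its log2 levels were 8.27, 8.28 and 8.39 on the WT arrays and 10.69, 10.61 and 10.61 on the KO188 arrays. Every KO188 array lay far above every WT array, and the change was 2.33 (SE 0.042, limma adjusted p = 2.3e-07). Psmb9 encodes beta1i, which replaces Psmb6. It read 8.45, 8.20 and 8.08 in WT and 10.13 on each KO188 array, a change of 1.88 (SE 0.089, adjusted p = 1.9e-05). WT replicate 1 was the highest of its group, yet far below every KO188 array, and the KO188 arrays were equal to the second decimal. Psmb10 encodes beta2i, which replaces Psmb7. It read 9.77, 9.73 and 9.63 in WT and 11.43, 11.42 and 11.39 in KO188, a change of 1.70 (SE 0.040, adjusted p = 7.5e-07). All 3 passed, against 13.3% of all tested genes called higher, and the lowest KO188 array exceeded the highest WT array for each, as it did for 18.8% of all tested genes. In WT all 3 already lay above 6.73, the level under which 95% of 1190 smell and pheromone receptor genes (olfactory and vomeronasal) fell on these arrays; this receptor guide stands in for the reading of silent genes.

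**Figure D1:**
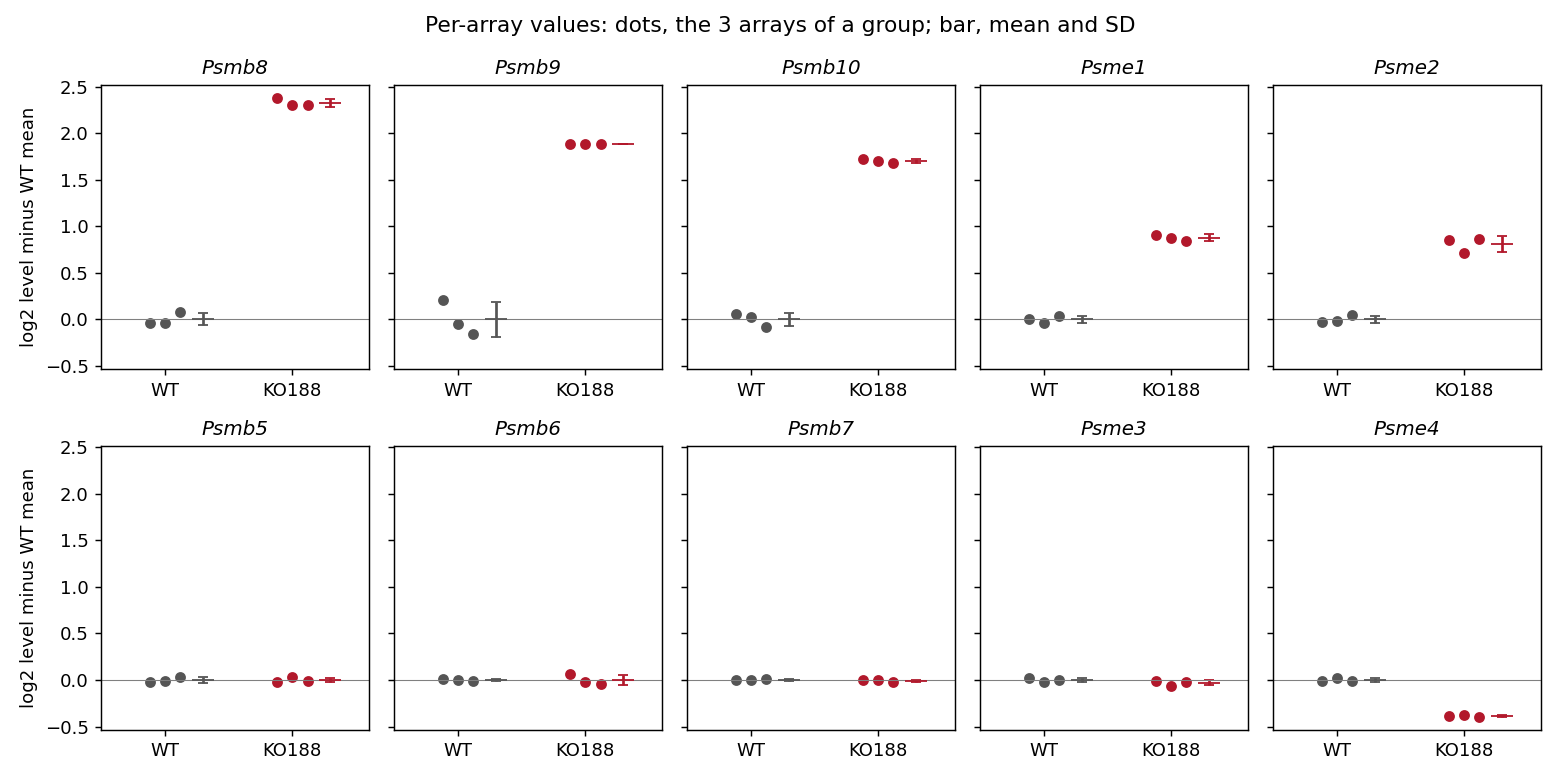
Log2 level minus the WT mean (vertical axis) of the immuno subunits and PA28 genes (top row) and of Psmb5, Psmb6, Psmb7, Psme3 and Psme4 (bottom row), with the 3 arrays of each group as dots and a bar for the mean and SD. The top row lies higher in KO188 by 0.81 (Psme2) to 2.33 (Psmb8), the constitutive catalytic subunits stay near 0, and Psme4 lies lower by 0.39.

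The constitutive catalytic subunits were not called, unlike their counterparts. Psmb5, of the chymotrypsin-like site, read 13.00, 13.01 and 13.06 in WT and 13.00, 13.05 and 13.01 in KO188. Its change was -0.00033, with a 95% interval of -0.070 to 0.069. Psmb6, of the caspase-like site, read 11.46, 11.46 and 11.45 in WT and 11.52, 11.43 and 11.41 in KO188, and its interval ran from -0.085 to 0.081. Psmb7, of the trypsin-like site, read 11.72, 11.72 and 11.74 in WT and 11.72, 11.72 and 11.71 in KO188, and its interval ran from -0.066 to 0.046. The groups overlapped for all 3. The signs depended on scaling: with quantile normalization the changes of Psmb5, Psmb6 and Psmb7 were 0.039, 0.037 and 0.022, none of them called.

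Taken within each array, where a shift of the whole array cancels, the log2 difference of Psmb8 to Psmb5 rose by 2.33 from WT (SD 0.035, n = 3) to KO188 (SD 0.064, n = 3). That of Psmb9 to Psmb6 rose by 1.89 (SD 0.18 and 0.057) and that of Psmb10 to Psmb7 by 1.71 (SD 0.078 and 0.014). With quantile normalization, which does not cancel, the rises were 2.25, 1.82 and 1.69. The KO188 arrays lay above the WT arrays in each pair. For each of the 3 pairs the two-sided exact permutation p was 0.10, the smallest that 3 against 3 arrays can give, and adjustment over the pairs leaves it at 0.10. This is a shift in transcripts; levels of different probe sets, and so the share of immunoproteasome, cannot be read from it.

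The structural beta subunits, which bear no active site, were also not called. Psmb1 read 11.14, 11.13 and 11.18 in WT and 11.28, 11.18 and 11.21 in KO188, a change of 0.075 (limma adjusted p = 0.18). Psmb2 read 12.88, 12.85 and 12.89 in WT and 12.94, 12.89 and 12.89 in KO188 (0.036, adjusted p = 0.39). For both genes the KO188 arrays lay just above the WT arrays, as 18.8% of all tested genes had all KO188 arrays above. Psmb2 alone was called by an alternative scaling, quantile normalization (0.087, adjusted p = 0.038), and with arrays centred on their medians its sign turned (-0.0080). Psmb3 and Psmb4 changed by 0.0025 and 0.013. Of 8 beta genes 0 passed limma's test, beside 29.8% of all tested genes. An unadjusted p under 0.05 was found for 0 of the 8, beside 7595 of the 19938 tested genes. The group median was 0.0011 beside -0.0053 over all tested genes. Psmb11, known as the thymus-specific beta5t, read 6.78, 6.80 and 7.02 in WT and 6.58, 6.81 and 6.70 in KO188, near the receptor guide of 6.73, and the groups overlapped (adjusted p = 0.20).

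The alpha ring, the outer gate of the core, fell in part. Psma7 read 10.83, 10.80 and 10.89 in WT and 10.66, 10.60 and 10.61 in KO188, a change of -0.22 (SE 0.034, limma adjusted p = 0.0031). Psma1 read 12.26, 12.27 and 12.28 in WT and 12.17, 12.19 and 12.14 in KO188 (-0.10, adjusted p = 0.024). Psma3 read 12.26, 12.24 and 12.19 in WT and 12.12, 12.14 and 12.09 in KO188 (-0.11, adjusted p = 0.032). The KO188 arrays lay below the WT arrays for each of them, as for 22.7% of all tested genes. Yet the size differed: Psma7 fell by about as much as the larger 19S changes, the others by less. Thus 3 of 8 alpha genes were called lower (37.5%), against 16.5% of all tested genes, with a group median of -0.052. The 16.5% covers dim genes too. With the dimmer 50% of genes left out, 3623 genes were called lower, more than the 3294 of all tested genes. The share called lower is thus higher among bright genes, and the 37.5% does not show an excess over genes of like brightness. Psma2, Psma4, Psma5 and Psma6 had changes from -0.059 to -0.0081 and did not pass. Psma8, known as a testis-specific alpha subunit, read 6.10, 6.17 and 6.05 in WT and 6.14, 6.10 and 6.11 in KO188, under the receptor guide in both groups. The Psma1 call ended with quantile normalization (adjusted p = 0.20), without any single WT array (0.058 to 0.065) and without KO188 replicate 3 (0.064). The Psma3 call ended with quantile normalization (0.19), without WT replicate 1 (0.10) or 2 (0.092) and without KO188 replicate 1 (0.065) or 3 (0.090). The alpha count was thus 1 without WT replicate 1, WT replicate 2 or KO188 replicate 3.

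The 19S particle fell more widely, though by small amounts. Among the 6 ATPases, which form the ring that unfolds substrates, 4 were called lower (66.7%, against 16.5% of all tested genes), with a group median of -0.12. Psmc4 read 11.75, 11.72 and 11.72 in WT and 11.56, 11.59 and 11.55 in KO188, a change of -0.16 (SE 0.026, limma adjusted p = 0.0037). Psmc6 read 11.88, 11.85 and 11.86 in WT and 11.75, 11.67 and 11.66 in KO188 (-0.17, adjusted p = 0.0068). Psmc2 read 10.89, 10.86 and 10.90 in WT and 10.78, 10.76 and 10.75 in KO188 (-0.12, adjusted p = 0.013). The KO188 arrays lay below the WT arrays for each of these, as for 22.7% of all tested genes. Psmc1 fell by 0.13 (adjusted p = 0.019), a call that ended without WT replicate 1 (0.068), WT replicate 3 (0.052) or KO188 replicate 3 (0.055). Psmc3 (-0.038) and Psmc5 (0.014) did not pass.

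Of the 14 Psmd genes 11 were called lower (78.6%, against 16.5% of all tested genes), or 8 with quantile normalization. All 14 changes were below 0, and the median was -0.17. Psmd3, a lid subunit, had the largest change: it read 11.24, 11.17 and 11.15 in WT and 10.86, 10.78 and 10.85 in KO188 (-0.36, SE 0.036, limma adjusted p = 5.4e-04). Psmd5, an assembly chaperone that holds the base before it joins the core, read 11.65, 11.65 and 11.67 in WT and 11.45, 11.41 and 11.44 in KO188 (-0.23, adjusted p = 7.6e-04). Psmd2, the large scaffold that binds ubiquitin-like domains, read 12.95 on each WT array and 12.76, 12.75 and 12.79 in KO188 (-0.18, adjusted p = 0.0017). The KO188 arrays lay below the WT arrays for each of the 3, as for 22.7% of all tested genes.

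Read by place in the particle, the lid, which carries the deubiquitinase, had 7 of its 8 Psmd genes called lower, again against 16.5% of all tested genes. They were Psmd3, Psmd6 (-0.24), Psmd8 (-0.21), Psmd13 (-0.17), Psmd11 (-0.16), Psmd7 (-0.13) and Psmd12 (-0.12). The eighth is the deubiquitinase gene itself, Psmd14, whose KO188 arrays also lay below the WT arrays but which did not pass (-0.099, adjusted p = 0.074). Psmd14 did pass with median centring (-0.14, adjusted p = 0.019), with the dimmer genes left out (0.047 and 0.023), with an intensity trend (0.021) and without WT replicate 3 (0.023). Sem1, a lid gene outside the symbol rule and read here among the partners and regulators, did not pass (0.037, adjusted p = 0.47). In the base, the scaffolds Psmd1 (-0.12) and Psmd2 fell and the ubiquitin receptor Psmd4 did not pass (-0.030, adjusted p = 0.64); the Psmd1 call ended without WT replicate 1 (0.053) and with quantile normalization (0.14). Of the assembly chaperones, Psmd5 and Psmd10 (-0.25), the gene of gankyrin, fell, while Psmd9 did not pass (-0.018). The calls of Psmd7 and Psmd12 also ended with quantile normalization (adjusted p = 0.067 and 0.096). The array medians lay at 7.43 to 7.44 in WT and at 7.46 to 7.50 in KO188; centring on them moved the Psmd median to -0.21, and quantile normalization moved it to -0.13.

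**Figure D2:**
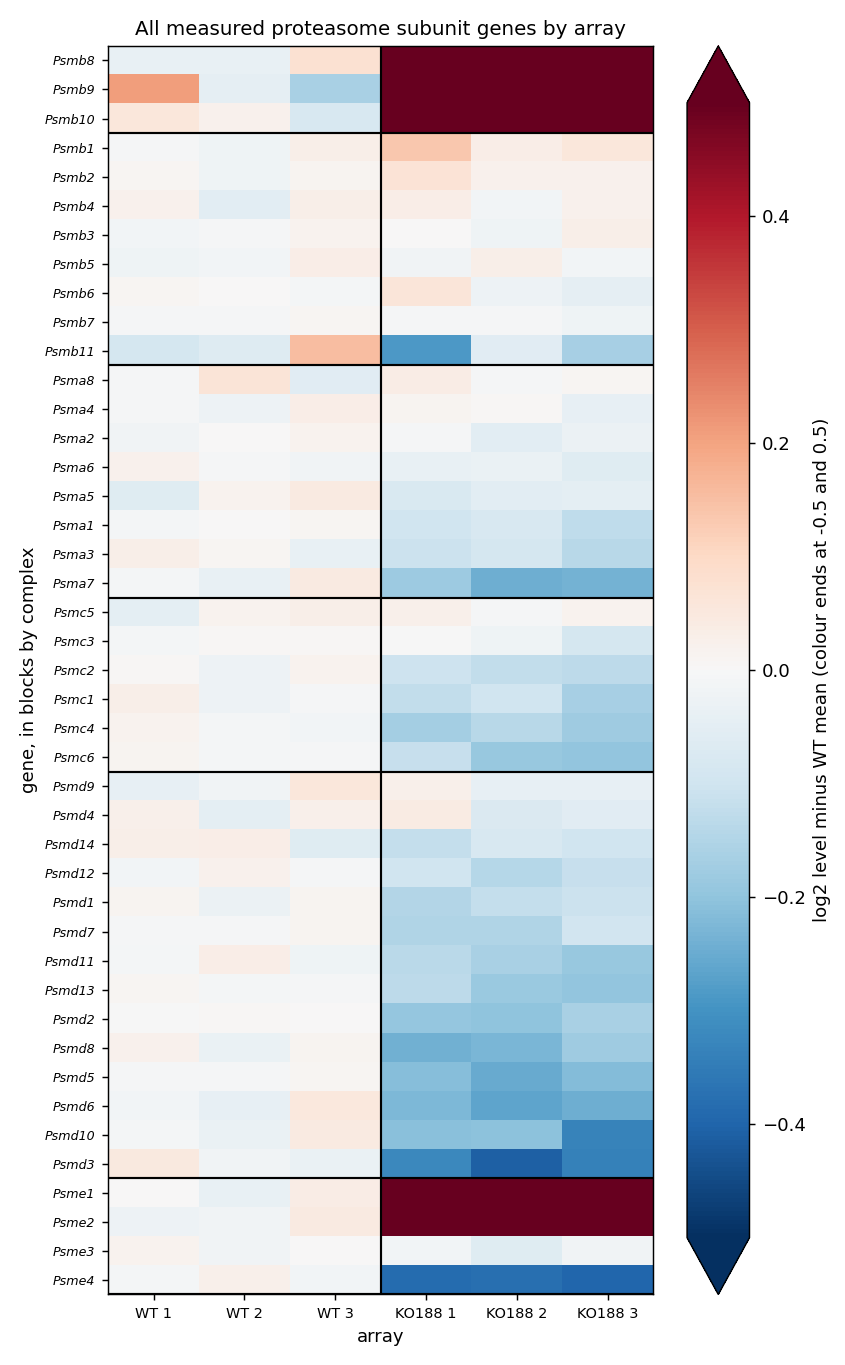
Log2 level minus the WT mean of each gene (rows, in blocks by complex) on the 6 arrays (columns), with red above and blue below the WT mean and colours that end at -0.5 and 0.5. The immuno subunits, Psme1 and Psme2 are red on all 3 KO188 arrays, the 20S beta block is pale apart from Psmb11, and most 19S rows are blue on all 3 KO188 arrays.

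The activators split. Psme1, the alpha chain of PA28, read 10.69, 10.65 and 10.73 in WT and 11.60, 11.57 and 11.53 in KO188, a change of 0.87 (SE 0.033, limma adjusted p = 7.2e-06). Psme2, the beta chain, read 11.49, 11.50 and 11.56 in WT and 12.37, 12.23 and 12.38 in KO188 (0.81, SE 0.048, adjusted p = 5.1e-05). Both chains of the heteromer rose, and the within-array difference between them, a comparison added later, moved by 0.065 (two-sided exact permutation p = 0.40). Psme3, which forms the nuclear cap PA28 gamma, read 12.49, 12.46 and 12.48 in WT and 12.46, 12.41 and 12.46 in KO188. Its change of -0.031 did not pass (95% interval -0.096 to 0.033). Psme4, which encodes the nuclear cap PA200, read 11.76, 11.80 and 11.76 in WT and 11.39, 11.39 and 11.38 in KO188. It fell by 0.39 (SE 0.025, adjusted p = 7.5e-05), the largest fall among the 43 members. Of the 4 genes 2 were called higher and 1 lower, against 13.3% and 16.5% of all tested genes.

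**Figure D3:**
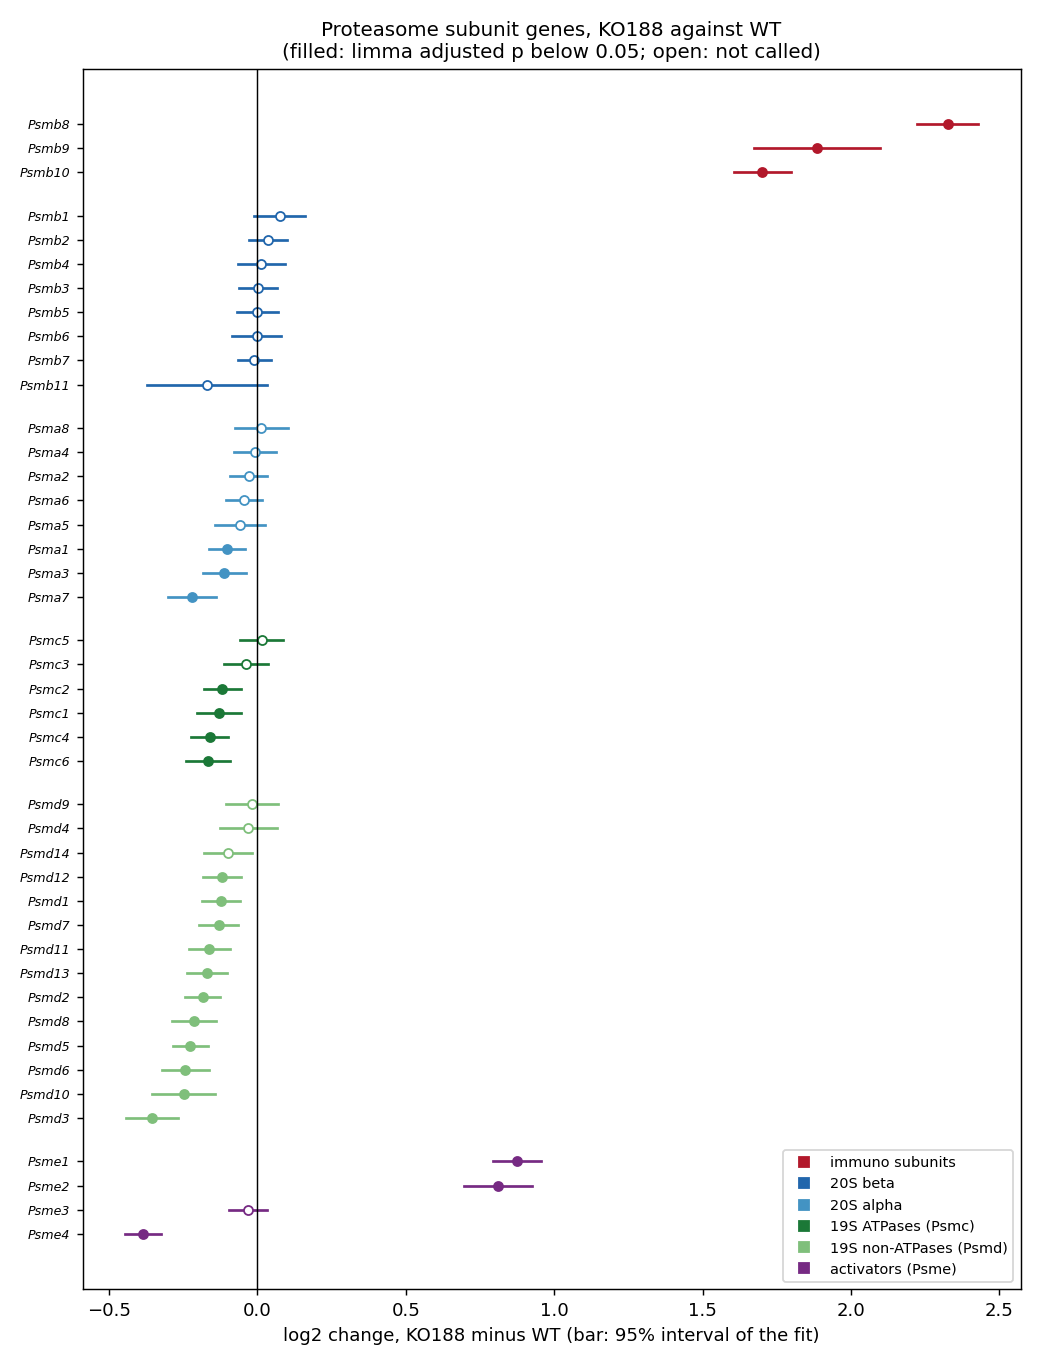
Log2 change, KO188 minus WT, of all 43 genes (rows, coloured by complex) with the 95% interval of the limma fit as a bar; filled circles passed an adjusted p of 0.05. The 5 genes at 0.81 or more are Psmb8, Psmb9, Psmb10, Psme1 and Psme2, and the 19 filled circles left of 0 are mostly 19S genes.

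Several rising members are neighbours in the genome. In the RefSeq order of GRCm38.p6, Psmb9, Tap1, Psmb8 and Tap2 follow each other, and both transporter genes rose, Tap1 by 2.97 and Tap2 by 1.52 (limma adjusted p = 6.1e-08 and 1.9e-06). The next gene after Tap2, H2-Ob, did not pass (-0.031, adjusted p = 0.59). Psme1 and Psme2 are separated only by Emc9, which did not pass (0.063, adjusted p = 0.17), and beyond Psme2 lie Rnf31 (0.71, adjusted p = 9.1e-06), of the linear ubiquitin ligase, and Irf9 (1.39, adjusted p = 5.0e-07), of the interferon signalling complex. Next to Psmb10, Ctrl rose by 0.63 and Pskh1 by 0.21, while Lcat (0.20, adjusted p = 0.089) and Slc12a4 (0.016) did not pass. Around Psme4, which fell, Erlec1 and Gpr75 rose by 0.17 and 0.12, while Acyp2 (0.10, adjusted p = 0.058) and 4930505A04Rik (-0.024) did not pass. On the other side of Psme1, Fitm1 (0.064) and Dcaf11 (0.045) did not pass either.

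Other genes of the pathway were read from fixed lists, whose counts stand against 13.3% of all tested genes called higher and 16.5% called lower. Peptide loading genes rose in 6 of 9 measured members and 1 fell, among them Tap1 and Tap2 and the loading factors Tapbpl (1.19) and Tapbp (1.06). Tap1 read 8.60, 8.67 and 8.74 in WT and 11.65, 11.65 and 11.63 in KO188. Without KO188 replicate 1 the number that fell was 2. Among peptide trimming enzymes 1 of 7 rose, Erap1 (0.47, adjusted p = 5.1e-05), the trimming enzyme of the endoplasmic reticulum; 1 of 7 is close to the share of all tested genes called higher. Another 4 of the 7 fell, among them the cytosolic peptidases Thop1 (-0.19) and Tpp2 (-0.19). Of 13 measured genes of the interferon route, 5 rose and 2 fell, the falls being close to the share of all tested genes called lower. Stat2 rose by 2.41, Irf9 by 1.39 and Irf1, a direct activator of immuno subunit genes, by 1.01 (adjusted p = 9.3e-07). Over the 14 alternatives the rise of Irf1 ran from 0.70 to 1.02, and Irf1 passed in each. The number that fell was 1 when WT replicate 1, WT replicate 3, KO188 replicate 2 or KO188 replicate 3 was left out. Ifnb1, the interferon beta gene, read 6.28, 6.31 and 6.36 in WT, under the receptor guide, and 7.46, 7.53 and 7.44 in KO188 (adjusted p = 3.3e-06); since its WT level cannot be told from that of silent genes, no size is given for its rise. The interferon gamma gene Ifng did not pass and lay at 6.93 in WT and 6.84 in KO188, close to the receptor guide.

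Partners of the constitutive proteasome fell in part, again beside 16.5% of all tested genes called lower and 13.3% called higher. The 16.5% covers dim genes too. With the dimmer 50% of genes left out, 3623 genes were called lower, more than the 3294 of all tested genes. Of 9 measured partners and regulators 4 fell, among them the deubiquitinases Uchl5 (-0.40) and Usp14 (-0.23) and the ligase Ube3c (-0.38), all of which act on the 19S particle. This count of 4 does not show an excess over genes of like brightness. Of 5 measured ubiquitin and shuttle genes 5 fell, led by the shuttle factors Ubqln2 (-0.33) and Ubqln1 (-0.28) and the activating enzyme Uba6 (-0.26). Of the genes that control constitutive subunit expression, Nfe2l1, the transcription factor that raises subunit genes when proteasomes fail, rose by 0.16 (adjusted p = 0.0042), and Vcp, an unfoldase, fell by 0.20, while 2 of 4 did not pass. Among 5 assembly genes Psmg1 fell by 0.13 and Psmg2 fell by 0.14, and Psmg4 rose by 0.25. The chaperone Pomp, which matures new cores, did not pass (-0.023, adjusted p = 0.67). Psmg4 was lost without WT replicate 1 (adjusted p = 0.061) or 2 (0.061) and without KO188 replicate 1 (0.056) or 3 (0.056). Psmg2 was lost without WT replicate 1 (0.11), 2 (0.11) or 3 (0.099) and without KO188 replicate 2 (0.12) or 3 (0.11). Over all tested genes 2643 were called higher and 3294 lower, so that 44.5% of calls were rises, or 30.8% with arrays centred on their medians; lists with more falls than rises are read beside that split.

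**Figure D4:**
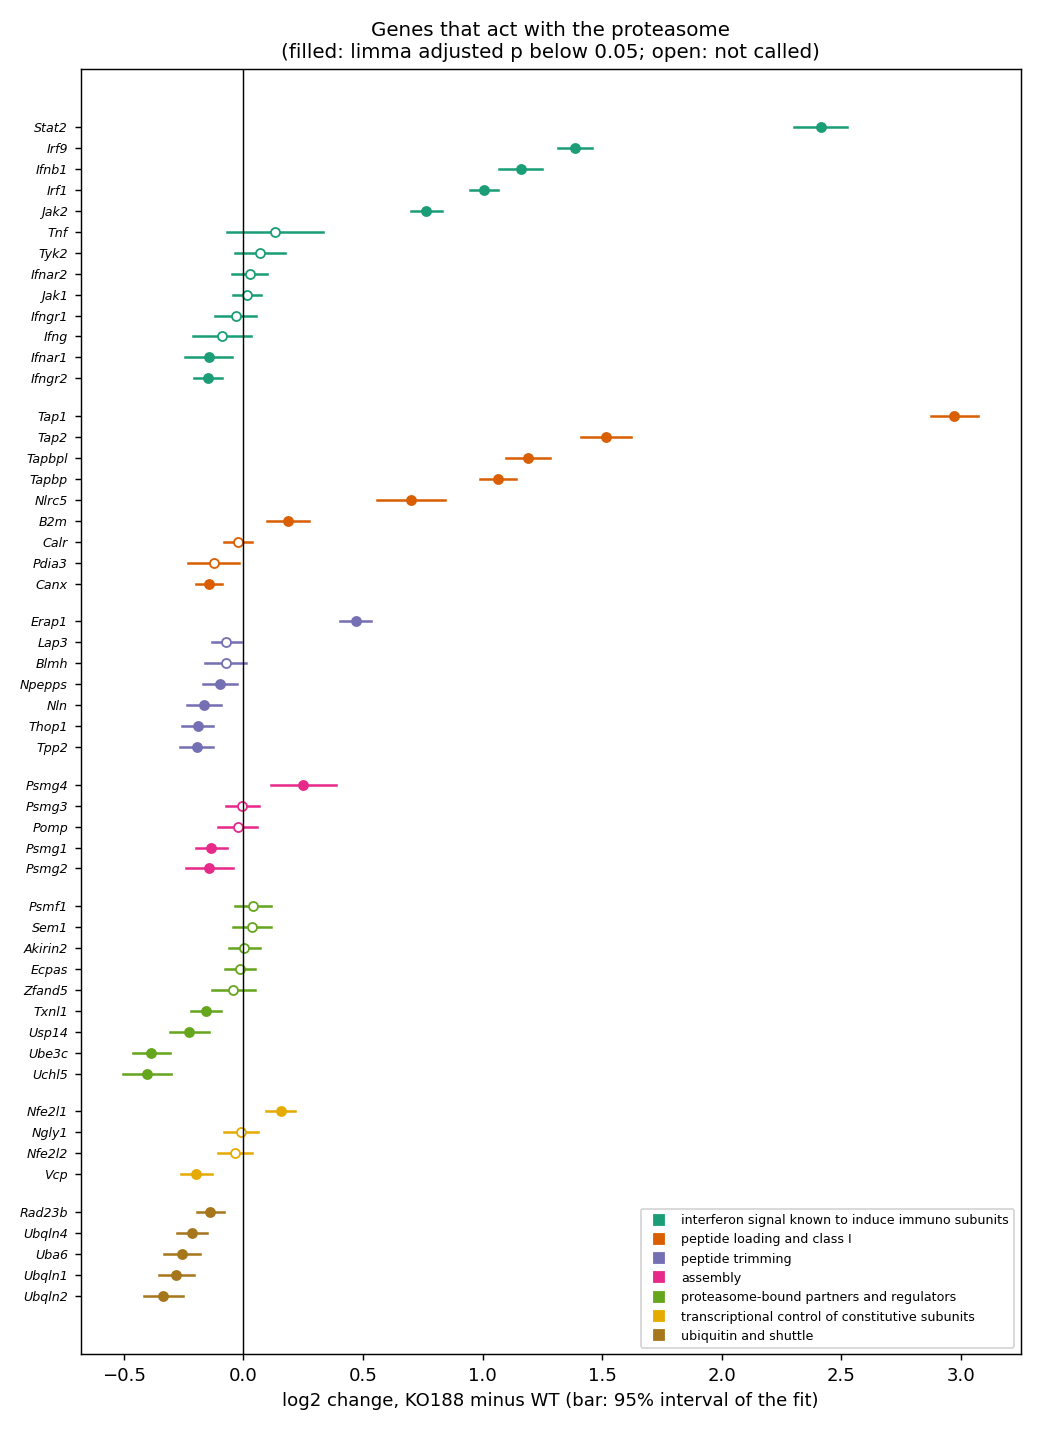
Log2 change, KO188 minus WT, of the measured genes of 7 pathway lists (rows, coloured by list) with the 95% interval of the limma fit; filled circles passed an adjusted p of 0.05. Tap1 (2.97) and Stat2 (2.41) lie furthest right, and all 5 ubiquitin and shuttle genes lie left of 0.

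Markers of other marrow cells were read because blood cells carry immunoproteasomes as standard. Measured were 35 markers of macrophages, lymphocytes with NK cells, dendritic cells, granulocytes and endothelium. Of these, 1 rose and 0 fell by limma, against 13.3% and 16.5% of all tested genes. Another count, of an unadjusted p under 0.05, was 5, beside 7595 of the 19938 tested genes. At or below the receptor guide lay 24 of the 35. The marker that rose, Mpeg1 of macrophages, read 5.46, 5.84 and 5.86 in WT and 7.03, 6.98 and 7.12 in KO188 (adjusted p = 2.2e-04), with WT under the guide and so no size given. The mean level over the 10 macrophage markers, Mpeg1 among them, was 6.51 to 6.55 on the WT arrays and 6.60 to 6.68 on the KO188 arrays. The rise in the mean was not list-wide: the median change of the 10 was -0.028, and 6 of them lay below 0. Of the 10 markers, 7, with Adgre1 (5.24 and 5.26) and Csf1r (6.29 and 6.25), lay at or below the guide. Apart from Mpeg1, the 9 macrophage markers changed by -0.27 (Cd14) to 0.15 (Cd68), none of them called. The 3 above the guide were Cd68 (8.39 in WT and 8.54 in KO188), Cd14 (7.85 and 7.58) and Tyrobp (7.02 and 7.03). For Cd68 the KO188 arrays lay above the WT arrays, as for 18.8% of all tested genes. The mean level over all 35 markers was 6.25 to 6.26 on the WT arrays and 6.20 to 6.30 on the KO188 arrays. Ptprc, the pan-leukocyte marker CD45, read 6.25 in WT and 6.23 in KO188, under the guide in both. The part of such cells in the immunoproteasome rise was not tested. Stromal identity was visible in Col1a1 (12.91 in WT and 13.11 in KO188), Pdgfrb (12.34 and 12.50) and Cxcl12 (11.54 and 11.94), and 7 of 11 stromal and bone markers rose, against 13.3% of all tested genes. Nt5e, the surface marker CD73, fell from 9.28 to 8.44 (adjusted p = 6.0e-05). Sp7, an osteoblast factor that is 1 of the 7, lay near the guide (6.41 in WT and 6.77 in KO188), and Lepr lay under the guide (5.18 and 5.12). Thy1, a stromal marker that was not called, lay just above the guide (6.88 in WT and 6.79 in KO188). In these bulk cultures a change in the number of cells of a type and a change in RNA per cell cannot be told apart.

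Where a gene had several probe sets they mostly behaved alike. Psma3, Psma5, Psmb3, Psmc1 and Psmd2 had more than 1. Both probe sets of Psmd2 fell (-0.18 and -0.16), as did 2 of the 3 of Psma3, and the other narrowly missed the threshold (-0.11, limma adjusted p = 0.052 among all probe sets). The second probe set of Psmc1 did not pass (-0.082, adjusted p = 0.16), and neither probe set of Psma5 or Psmb3 did. In 8 members at least 2 arrays of a group held the same value to the fifth decimal, as in 26.5% of all tested genes. The KO188 arrays of Psmb9 had an SD of 5.8e-05, and Psmb7 was tied in both groups.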

How the data were processed

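RNA from 6 cultures was read on 1 Affymetrix array each, from 6 ug of total RNA. The authors' deposited values are log2 levels per probe set; per the submitters' processing notes RMA, Partek and Affymetrix Expression Console were used, with no version or order. RMA equalises arrays and compresses dim values, though the array medians of the deposited values still ran from 7.43 to 7.50. Of 35556 probe sets, 21789 have 1 symbol in GEO's platform annotation, 1621 have several and 12146 are not listed; 21698 of those with 1 symbol matched RefSeq (GRCm38.p6) by Entrez identifier. For 999 genes with several probe sets the brightest was used, and dim genes were kept.

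The 6 arrays were fitted by genotype in R 4.3.3 with limma 3.58.1 (lmFit, then eBayes without trend, Benjamini-Hochberg over all tested genes). The tests were tried on simulated data. Figures used matplotlib 3.10.9 in Python 3.11.15. Across genes, replicate arrays had r of 0.9988 to 0.9993, and the SD among WT arrays had a median of 0.039, among KO188 arrays 0.048; the number of arrays limits the precision.

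Members, lists, the receptor guide, the neighbour genes and the motifs were chosen with earlier results of these data known. Named in full are the immuno subunits, their partners, the activators, Psma8, Psmb11, the 3 members with the lowest p of every other group, and up to 3 called genes of each pathway list; Ifnb1, Ifng, Pomp, and single markers were picked after their values were seen. Entries without a single-gene probe set, such as Adrm1, H2-K1 and H2-D1, were not analysed here. Alternatives were array scaling, filters on dim genes, probe set rules, an intensity trend, the replicate number as a block, and leaving out each array.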

Additional observations from a re-analysis of the deposited data

Results flagged for a closer look

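A probe set outside the comparisons carried a signal above the control arrays. The annotation pairs it with both Psme2 and Psme2b, so it was assigned to neither gene. It read 10.17, 10.16 and 10.11 in WT and 11.19, 11.13 and 11.13 in KO188. The log2 difference was 1.003, with SE 0.033 and an adjusted p of 3.1e-05 in limma's fit over all probe sets. The probe set paired with Psme2 alone changed by 0.81.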

How the results depend on the processing

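Over 14 alternatives, of which 6 left out 1 array, the calls of Psmb8, Psmb9, Psmb10, Psme1, Psme2 and Psme4 kept their direction and passed in all 84 fits. The changes in the 3 within-array differences kept their direction in the 36 fits that gave a value; the intensity trend and the test of single probe sets do not bear on them. With arrays centred on their medians the group medians were -0.17 (Psmc), -0.21 (Psmd), -0.096 (alpha), -0.043 (beta) and 0.35 (Psme), and the signs of Psma8 (-0.031), Psmb2 (-0.0080), Psmb3 (-0.042), Psmb4 (-0.031) and Psmc5 (-0.030) turned, none of them called. With quantile normalization the medians were -0.13 (Psmd), -0.027 (alpha), 0.043 (beta) and 0.43 (Psme), 1 alpha gene was lower, 8 Psmd genes were lower, 1 beta gene was higher, and Psma4 (0.026), Psmb5 (0.039), Psmb6 (0.037), Psmb7 (0.022), Psme3 (0.0036) and Psma8 (-0.0098) turned. With probe sets of a gene averaged, the alpha median was -0.040. Peptide loading genes lower were 2 with median centring, with the dimmer 50% of genes left out and with an intensity trend. The cause of these shifts was not tested.

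The replicate numbers did not pair the samples: same-numbered arrays deviated from their group means with correlations of 0.018, 0.010 and -0.028. With the replicate block 1 alpha, 2 Psmc, 9 Psmd and 1 assembly gene were called lower; the members whose calls were lost were Psma1 (adjusted p = 0.087), Psma3 (0.065), Psmc1 (0.059), Psmc2 (0.057), Psmd1 (0.056) and Psmd12 (0.065), and 5019 of all tested genes were called in place of 5937.

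With 1 array left out, the number lower ran from 1 to 3 (alpha), 3 to 4 (Psmc) and 10 to 12 (Psmd). The medians ran from -0.064 to -0.044 (alpha), -0.18 to -0.15 (Psmd) and -0.0042 to 0.014 (beta). Assembly genes ran from 0 to 1 higher and 1 to 2 lower, interferon route genes from 1 to 2 lower and peptide loading genes from 1 to 2 lower. Psmb5 ran from -0.015 to 0.017, Psmb6 from -0.034 to 0.019 and Psma8 from -0.016 to 0.045. Some calls on changes up to the -0.13 of Psmd7 depended on scaling, while those of Psmc1 (-0.13) and Psmc2 (-0.12) held under both scalings. Dim members such as Psma8 and Psmb11 allow no firm reading.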
